A study of Mus musculus with 11 samples.

Results

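Circadian clock repressors and output genes, together with the activators Npas2 and Clock that drive them, were examined in the S3 segment of the mouse kidney proximal tubule. The set holds 10 listed genes: Npas2, Clock, Per1, Per2, Per3, Nr1d1, Nr1d2, Dbp, Tef and Usp2. A gene was read from a probe set (the group of oligonucleotides that measures a transcript) that carries its symbol and no other, and where there were several, from the one with the highest mean over all 11 arrays. By this rule 9 of the 10 genes were measured, of 22180 genes with a probe set of their own. The only probe set for Per2 also carries a second gene's symbol, so Per2 has no value here.

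The samples were total RNA of S3 proximal tubules from mice of strain 129/SvEv, the straight part of the proximal tubule in the outer medulla. Wild-type mice (WT, called THP+/+ in the design) gave 6 arrays and mice without Tamm-Horsfall protein (THP -/-) gave 5. Both groups share the strain, and no treatment, age, sex or hour of collection is given for either. Tamm-Horsfall protein, the product of Umod and also named uromodulin, comes chiefly from the thick ascending limb next to the S3 segment. Batch 1 held 5 wild-type and 3 THP -/- arrays, and batch 2 held 1 wild-type and 2 THP -/- arrays. The labels do not say whether the arrays of a group came from separate animals, so a p-value here reflects array-to-array spread, which may be technical. The sources used here do not give how the tubules were isolated.

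The circadian clock is a feedback loop of transcription that runs in nearly every cell. CLOCK or its relative NPAS2 pairs with BMAL1 (encoded by Arntl) and binds E-box sequences to switch on the Per and Cry repressors, the nuclear receptors Nr1d1 and Nr1d2, and output genes such as Dbp, Tef and Usp2. PER and CRY proteins then silence the activators, while NR1D1 and NR1D2 repress Arntl, Npas2 and, more weakly, Clock through RORE sequences. In mouse tissues, kidney included, the messages of Nr1d1, Nr1d2, Dbp, Tef, Per1, Per3 and Usp2 are highest in the day or around dusk, whereas those of Arntl and Npas2 are highest around the end of the night and that of Clock swings less. Tissue collected at another hour can therefore move these sets of genes in opposite directions. It need not do so for every pair of hours, since the peaks span day to dusk and Clock swings less.

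The promoters are shown because E-box and D-box elements are what link the members to the loop. RefSeq promoters (build GRCm38.p6, 250 bases before to 50 after each start) were held for 9 members, as 13 promoters in all. An E-box (CACGTG) lay in 3 of these 13 and in 7.15% of all 32851 promoters. An E-box-like site (CACGTT, read on both strands) lay in 1 of them and in 4.68% of all, and a D-box (TTATGTAA or TTACGTAA, read on both strands), the site bound by DBP and TEF, lay in 1 of them and in 1.06% of all. A RORE core (TAGGTCA or TGGGTCA, read on both strands) lay in 0 of the 13 and in 6.45% of all promoters. The searched motifs do not overlap one another in the windows below, where capitals mark each match and the sequence reads 5′ to 3′ on the gene's strand.
Per1, upstream of its start, chr11:69098743-69098828 (+): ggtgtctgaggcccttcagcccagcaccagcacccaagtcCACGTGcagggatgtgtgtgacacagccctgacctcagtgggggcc
Tef, first listed start, chr15:81802506-81802591 (+): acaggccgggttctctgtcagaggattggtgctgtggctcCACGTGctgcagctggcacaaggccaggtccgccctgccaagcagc
Tef, second listed start, chr15:81811236-81811321 (+): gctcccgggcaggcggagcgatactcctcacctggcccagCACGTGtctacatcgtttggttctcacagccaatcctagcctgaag
Nr1d1, chr11:98775378-98775445 (-): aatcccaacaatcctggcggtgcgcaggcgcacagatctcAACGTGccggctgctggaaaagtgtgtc
Per3, a pair of D-boxes, chr4:151044776-151044910 (-): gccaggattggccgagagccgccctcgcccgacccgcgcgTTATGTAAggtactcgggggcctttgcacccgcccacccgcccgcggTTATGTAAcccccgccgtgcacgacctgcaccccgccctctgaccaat
These matches describe letters in the windows and not occupied sites. Npas2, Clock, Nr1d2, Dbp and Usp2 held none of the searched motifs in the windows given, which says nothing of sites elsewhere in those genes. The Per1 window shown belongs to the first listed start, and the promoter of its second listed start (chr11:69099902-69100201) held none either.

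All values are deposited log2 signals, and array medians lay between 3.85 and 4.01. Each of the 9 measured members lay above its own array's median in all 11 arrays. Some genes of other lists named below were dimmer: Cry1 lay above it in 4 arrays, Hspa1a in 3, and Wee1, Fbxl21 and Bhlhe41 in 0. Detection values were not used, so these levels are not set against a background. Each level is compared across arrays only, since signals of different probe sets have no common scale. The targeted gene Umod averaged 5.80 across the wild-type and 4.49 across the THP -/- arrays, but THP -/- replicate 5 read 5.27, the same as wild-type replicates 2 and 5. Markers of the S3 segment were higher in THP -/- arrays for 8 of 8 genes, with array means from 7.87 to 9.09 in wild type and from 8.52 to 9.67 in THP -/-. Markers of the S1 and S2 segments were lower for 6 of 6 genes, from 6.39 to 7.81 against 5.91 to 7.48. Thick ascending limb markers were higher for 7 of 8 genes, all but Umod, from 5.21 to 6.03 against 5.38 to 7.11, the last value being THP -/- replicate 4. Collecting duct markers were higher for 5 of 8 genes, from 4.42 to 4.88 against 4.24 to 5.85, the last value again being THP -/- replicate 4. Of these lists, 0 genes passed limma's test over all probe sets. At an unadjusted p under 0.05 by limma there were 2, 2, 1 and 0 genes in the order given, against 5.64% of all genes. The 1 thick ascending limb gene was the targeted Umod itself, which was lower, and none of the 7 higher markers was among them. Distal convoluted tubule markers were higher for 3 of 4 genes, from 4.25 to 5.06 against 4.26 to 6.45, led by Calb1 at 0.76 on the log2 scale (adjusted p = 0.776, limma). Replicate 4 held the highest THP -/- value of every collecting duct and distal convoluted tubule marker, so both upper ends rest on that array. Immune markers were higher for 4 of 5 genes, from 4.49 to 4.87 against 4.70 to 4.92, led by the macrophage receptor gene Csf1r at 0.58 on the log2 scale (adjusted p = 0.735, limma). Calb1 and Csf1r were the only genes of their lists at an unadjusted p under 0.05. Endothelial markers were higher for 5 of 6 genes, thin limb markers for 1 of 4 and stromal markers for 1 of 4, with 0 genes at an unadjusted p under 0.05. The part of these cell types in the results on clock genes was not tested, and some values with a marker mean in the model are given beside the results. The thick ascending limb marker mean includes the targeted gene Umod, so the lower Umod signal of THP -/- arrays enters it wherever it is used.

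Across the 9 measured members, 8 had higher signal in THP -/- arrays and 1, Npas2, had lower signal, and no member passed the test. The test was limma's moderated test with batch as a term, adjusted by Benjamini-Hochberg over all 41345 probe sets at a threshold of 0.05. It called 0 of 9 members and 0% of all probe sets. At an unadjusted p under 0.05 it held 1 member, Usp2, against 5.64% of all genes. In 0 of 9 members did the genotypes separate without overlap, against 0.597% of all probe sets. The median log2 change (THP -/- minus wild type, batch-adjusted) of the members was 0.19, with a range from -0.35 to 0.45, while that of all genes was 0.01 and that of the 12710 genes with a mean above the median probe set was 0.05. A positive change was held by 53.4% of all genes and by 59.6% of those above the median probe set. The change had the same sign in both batches for 9 of 9 members and for 54.3% of all genes. The members were read from the same arrays, so they are not independent replicates of this direction.

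**Figure D1:**
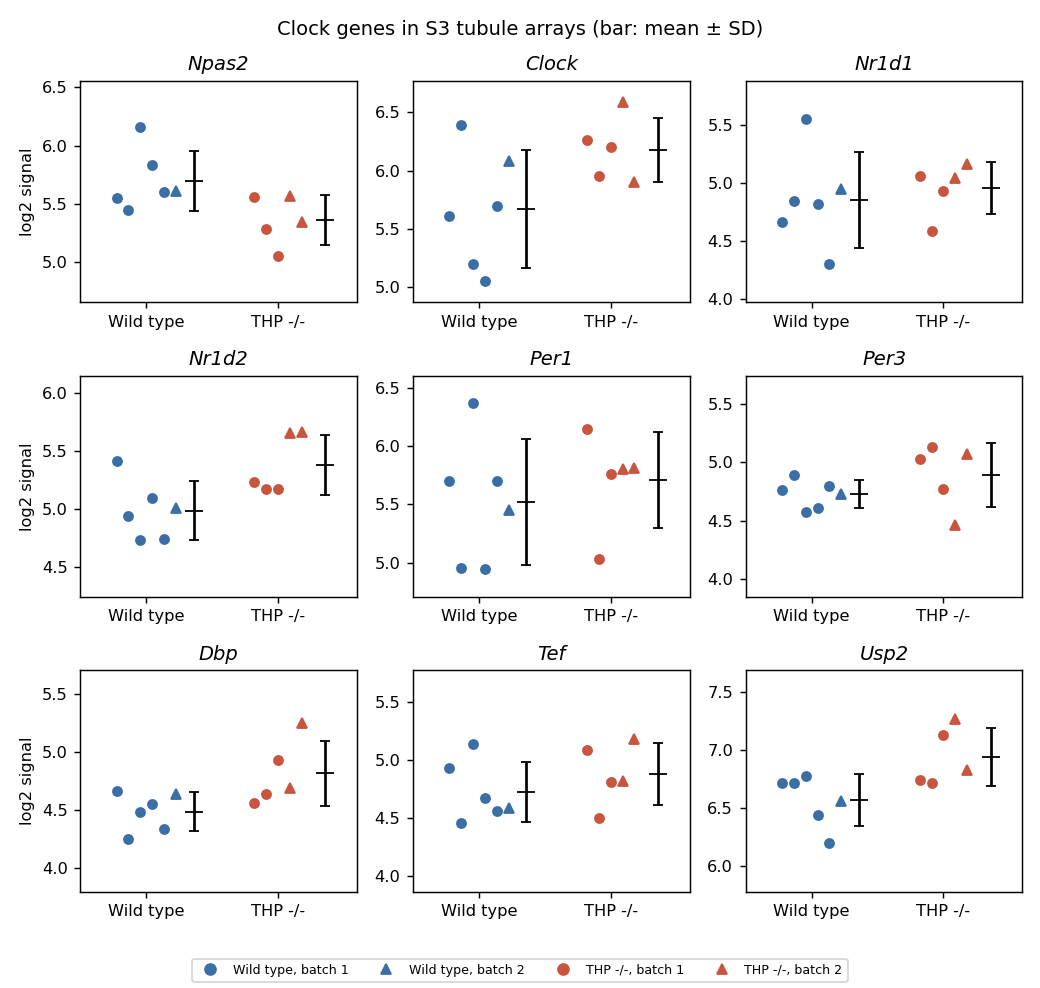
Each panel plots the log2 signal of a measured gene in every array, wild type in blue and THP -/- in red, with circles for batch 1 and triangles for batch 2; the black mark is the group mean ± SD (n = 6 and n = 5), and every panel spans the same number of log2 units. The groups overlap in all 9 panels, and Npas2 is the one gene with a lower THP -/- mean.

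Npas2 and Clock, the paralogous partners of BMAL1, lay on opposite sides. Npas2 (Entrez 18143) ran from 5.45 to 6.16 in the 6 wild-type arrays, with a median of 5.61, and read 5.56, 5.28, 5.05, 5.57 and 5.34 in THP -/- replicates 1 to 5. The highest THP -/- array lay below 4 of the 6 wild-type arrays and above the other 2. Wild type averaged 5.70 ± 0.26 (SD, n = 6), against 5.36 ± 0.22 (SD, n = 5) for THP -/-. The log2 change, -0.35 ± 0.16 (SE), 1.28-fold lower, had an interval (95%) of -0.70 to 0.00084 and did not pass (limma adjusted p = 0.813). A two-sided exact permutation of genotype within batches gave p = 0.0476 for this single gene, where the design allows no p below 0.00595. Batch 1 alone gave -0.42 and batch 2 alone gave -0.16.

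Clock (Entrez 12753), the widely expressed activator, ran from 5.05 to 6.39 in wild type with a median of 5.66. It read 6.26, 5.95, 6.20, 6.59 and 5.90 in the THP -/- arrays. All THP -/- arrays lay above 4 of the 6 wild-type arrays, whereas wild-type replicates 2 (6.39) and 6 (6.08) lay within their range. The log2 change, 0.45 ± 0.24 (SE), had an interval (95%) of -0.09 to 0.99 and did not pass (limma adjusted p = 0.826; exact permutation p = 0.143). It was 0.55 within batch 1 and 0.17 within batch 2. With the difference between S3 and S1/S2 marker means added to the model, a setting chosen after seeing the data, the change of Clock was 0.23 and that of Npas2 -0.18. With the thick ascending limb marker mean, which includes Umod, in the model instead, they were 0.38 and -0.37.

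The nuclear receptor repressors Nr1d1 and Nr1d2, which silence Arntl and Npas2 and are read out as markers of daytime phase, had changes of 0.06 and 0.32. Nr1d1 (Entrez 217166) ran from 4.30 to 5.55 in wild type, with a median of 4.83, and read 5.06, 4.59, 4.93, 5.04 and 5.16 in THP -/- arrays. All 5 THP -/- arrays lay inside the wild-type range, and the log2 change, 0.06 ± 0.20 (SE), had an interval (95%) of -0.39 to 0.51 and did not pass (limma adjusted p = 0.974). With the S3 and S1/S2 marker difference in the model it was 0.37 ± 0.22 (SE; limma adjusted p = 0.994).

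Nr1d2 (Entrez 353187), the paralogue of Nr1d1, ran from 4.73 to 5.41 in wild type with a median of 4.98. It read 5.23, 5.17, 5.17, 5.65 and 5.66 in THP -/- arrays, where wild-type replicate 1 was the only wild-type array above the lowest of them. The log2 change, 0.32 ± 0.15 (SE), 1.25-fold, had an interval (95%) of -0.0042 to 0.65 and did not pass (limma adjusted p = 0.813; exact permutation p = 0.0714). It was 0.21 within batch 1 and 0.65 within batch 2. With the replicate number as a block it was 0.16. The difference in change between the paralogues was not tested.

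The period repressors Per1 and Per3 had positive changes that were small beside their errors. Per1 (Entrez 18626), which also answers to glucocorticoids and acute stimuli, ran from 4.94 to 6.37 in wild type with a median of 5.58 and read 6.15, 5.03, 5.76, 5.80 and 5.81 in THP -/- arrays. Its THP -/- values lay inside the wild-type range, and the log2 change, 0.18 ± 0.29 (SE), had an interval (95%) of -0.46 to 0.82 and did not pass (limma adjusted p = 0.938). A single array moved it from 0.02 (without THP -/- replicate 1) to 0.40 (without THP -/- replicate 2).

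Per3 (Entrez 18628), a weaker repressor and an E-box and D-box output, ran from 4.57 to 4.89 in wild type with a median of 4.75 and read 5.03, 5.13, 4.77, 4.46 and 5.07 in THP -/- arrays. THP -/- replicates 1, 2 and 5 lay above every wild-type array and replicate 4 lay below every one. The log2 change, 0.19 ± 0.14 (SE), had an interval (95%) of -0.11 to 0.50 and did not pass (limma adjusted p = 0.857).

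The output genes Dbp, a D-box factor, and Usp2, a deubiquitinase, had positive changes within both batches. So had every other measured member except Npas2, and batch 2 held 1 wild-type array. Dbp (Entrez 13170) ran from 4.25 to 4.66 in wild type with a median of 4.52 and read 4.56, 4.64, 4.93, 4.69 and 5.25 in THP -/- arrays. THP -/- replicates 3, 4 and 5 lay above all wild-type arrays, and the other two lay inside the wild-type range. The log2 change, 0.27 ± 0.14 (SE), 1.21-fold, had an interval (95%) of -0.03 to 0.58 and did not pass (limma adjusted p = 0.823; exact permutation p = 0.0714). It was 0.25 within batch 1 and 0.33 within batch 2.

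Usp2 (Entrez 53376), an enzyme that removes ubiquitin from clock proteins among others and whose message cycles in many tissues, ran from 6.20 to 6.78 in wild type with a median of 6.64. It read 6.74, 6.72, 7.13, 7.27 and 6.83 in THP -/- arrays, so that replicates 3, 4 and 5 lay above all wild-type arrays. The log2 change, 0.34 ± 0.15 (SE), 1.27-fold, had an interval (95%) of 0.0032 to 0.68 and did not pass (limma adjusted p = 0.809; exact permutation p = 0.0714). It was 0.29 within batch 1 and 0.49 within batch 2, 0.26 with the thick ascending limb marker mean in the model, and 0.12 with the replicate number as a block.

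Tef (Entrez 21685), a D-box factor related to Dbp, was the one member with 2 probe sets of its own, and they disagreed in direction. The brighter one ran from 4.46 to 5.14 in wild type with a median of 4.63, read 5.09, 4.50, 4.81, 4.82 and 5.18 in THP -/- arrays, and gave a log2 change of 0.14 ± 0.17 (SE; limma adjusted p = 0.909). The dimmer one read 4.31, 3.86, 4.36, 4.36 and 4.59 in THP -/- arrays against a wild-type mean of 4.43 ± 0.25 (SD, n = 6). It gave -0.16 ± 0.17 (SE; limma adjusted p = 0.894), and the mean of both gave -0.01. The brighter one gave 0.33 with the S3 and S1/S2 marker difference in the model, and from 0.048 (without wild-type replicate 6) to 0.27 (without THP -/- replicate 2) when single arrays were left out. No direction is therefore given for Tef, and the count of 8 higher members rests on its brighter probe set.

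**Figure D2:**
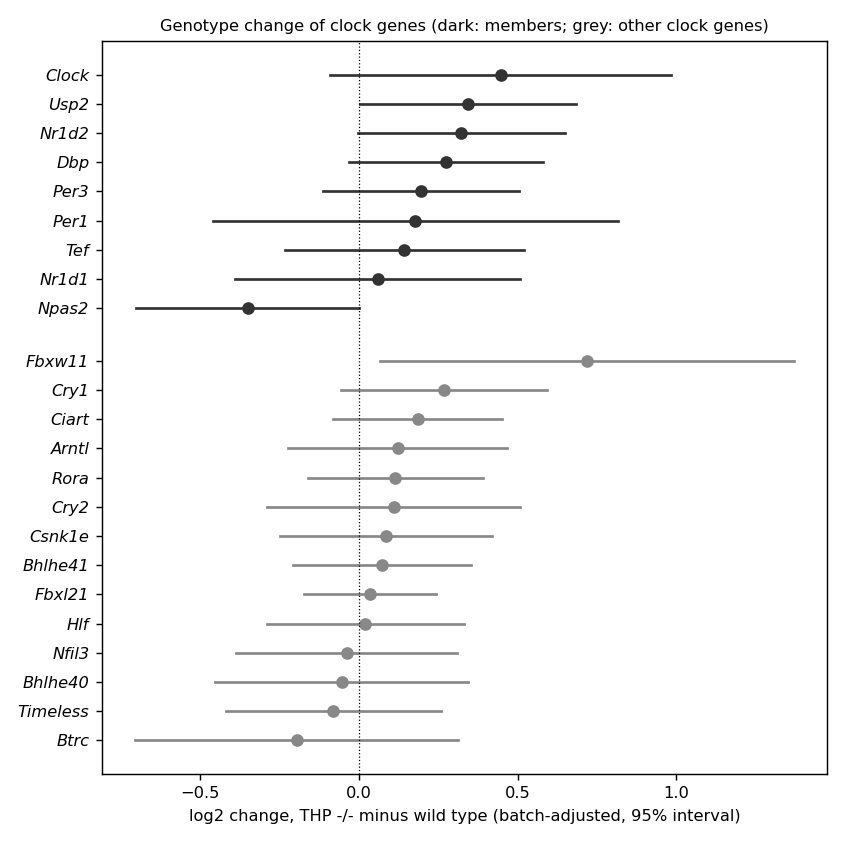
Points give the batch-adjusted log2 change (THP -/- minus wild type) of each gene on the x axis and lines its 95% interval from limma, with the 9 measured members in dark and 14 other clock genes in grey. Usp2 and Fbxw11 have intervals wholly above zero, Npas2 and Nr1d2 have an end close to it, and no gene shown passed the adjusted test.

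Genes of opposite phase were set against each other in each array, as the mean of Nr1d1, Nr1d2, Per1, Per3, Dbp, Tef and Usp2 minus the mean of Npas2 and Clock. Only differences between arrays carry meaning in this quantity, and because its genes were chosen with results known it has no p-value. It read -0.32, -0.91, -0.31, -0.42, -0.70 and -0.71 in wild-type replicates 1 to 6 and -0.50, -0.50, -0.27, -0.69 and -0.05 in THP -/- replicates 1 to 5. The groups overlapped, with means of -0.56 ± 0.25 (SD, n = 6) and -0.40 ± 0.25 (SD, n = 5). The batch-adjusted difference was 0.17 ± 0.16 (SE), smaller than the spread within either group. It was 0.11 within batch 1, 0.34 within batch 2, 0.10 without wild-type replicate 2 and 0.09 without THP -/- replicate 5, the array with the highest value and with Umod at the lowest wild-type level. It was 0.28 with the S3 and S1/S2 marker difference in the model and 0.20 with the thick ascending limb marker mean.

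The parts of this quantity differed. For the 7 day and dusk genes the mean was 5.12 ± 0.17 (SD, n = 6) for wild-type arrays against 5.37 ± 0.16 (SD, n = 5) for THP -/- arrays, a batch-adjusted difference of 0.22 ± 0.10 (SE). That of Npas2 and Clock was 5.69 ± 0.18 (SD) and 5.77 ± 0.21 (SD), a difference of 0.05 ± 0.12 (SE), since the changes of Npas2 and Clock cancel. With Npas2 left out, so that Clock alone stood for the opposite phase, the difference turned to -0.23. With Arntl added it was 0.14. The positive part of the opposite-phase difference thus came from the day and dusk genes (0.22), since the mean of Npas2 and Clock was slightly higher too. Its sign turned with Npas2 (change -0.35) left out, while the positive change of Clock (0.45) made the difference smaller. A version with Clock left out was not calculated. The hour of collection is not in the labels, and its part in these values was not tested.

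**Figure D3:**
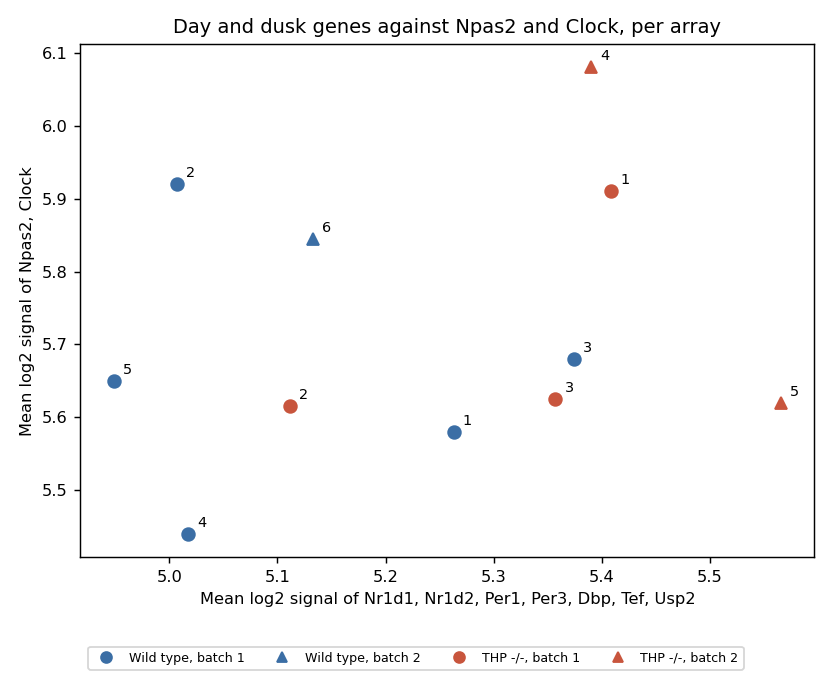
Each point is an array, numbered by replicate, with the mean log2 signal of 7 day and dusk genes on the x axis and that of Npas2 and Clock on the y axis (blue wild type, red THP -/-, circles batch 1, triangles batch 2). The THP -/- arrays lie to the right on average (5.37 against 5.12) with overlap, and no downward diagonal from wild type to THP -/- is seen on the y axis (5.77 against 5.69).

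The members varied to different degrees between arrays of a genotype and batch. The residual SD of Per1 was 0.52 on the log2 scale, above that of 94.9% of the 12710 genes with a mean over the median probe set. Clock had 0.43 (above 89%) and Nr1d1 0.35 (above 77.6%). The others lay near or under the typical gene, whose residual SD was 0.25: Tef at 0.28, Npas2 at 0.25, Usp2 at 0.24, Nr1d2 at 0.23, and Per3 and Dbp at 0.21. Dbp and Per3, both strong rhythmic outputs in mouse tissues, were thus among the members that varied least between these arrays.

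Whether members varied together from array to array was described by 15 correlations over the 11 arrays, of Dbp and of Npas2 with each other measured member, with permutation p-values (100000 resamples, two-sided) adjusted over the 15. Dbp and Nr1d2 gave Pearson's r = 0.72 (permutation p = 0.00978, adjusted 0.147) and Spearman's rho = 0.82 (permutation p = 0.00246, adjusted 0.0369). Without the 2 arrays farthest from the median of Dbp, r was 0.58, within batch 1 it was 0.62, among the wild-type arrays 0.64, and after removing genotype and batch means 0.37. Npas2 and Clock gave r = -0.62 (permutation p = 0.0406, adjusted 0.304) and rho = -0.44 (permutation p = 0.183, adjusted 0.392), with -0.46 without the 2 farthest arrays, -0.76 within batch 1 and -0.77 among the 6 wild-type arrays. Npas2 and Per3 gave r = -0.56 (permutation p = 0.0738, adjusted 0.345) and rho = -0.69 (permutation p = 0.0238, adjusted 0.178), with -0.74 without the 2 farthest arrays, -0.61 within batch 1 and -0.91 among the 6 wild-type arrays. After removing genotype and batch means these r values were -0.48 for Clock and -0.42 for Per3. Dbp and Clock gave r = 0.11 (permutation p = 0.7515, adjusted 0.7515). It was -0.38 among the wild-type arrays and -0.61 after removing genotype and batch means. Dbp and Usp2 gave r = 0.48 and rho = 0.63 (permutation p = 0.134 and 0.0439, adjusted 0.350 and 0.220), and r = 0.02 after that removal. The r of Dbp with Tef, Nr1d1, Per1 and Per3 was 0.53, 0.30, 0.24 and 0.24. After that removal it was 0.47, 0.15, 0.12 and 0.14.

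Npas2 did not run inversely to all day and dusk genes. Its r with Dbp was -0.47 (permutation p = 0.140, adjusted 0.350; rho -0.51, p = 0.115, adjusted 0.337; -0.68 without the 2 arrays farthest on Dbp, -0.49 within batch 1). Its r with Nr1d1 was 0.39 (permutation p = 0.221, adjusted 0.415; rho 0.19, p = 0.575, adjusted 0.747; -0.06 without the 2 farthest arrays, 0.49 within batch 1). After removing genotype and batch means, the r of Npas2 was 0.64 with Nr1d1, 0.57 with Tef and 0.53 with Per1. It was 0.08 with Usp2, -0.13 with Nr1d2, -0.22 with Dbp and -0.42 with Per3. Among the wild-type arrays alone, the r of Npas2 was 0.75 with Nr1d1, 0.75 with Tef and 0.60 with Per1. There it was 0.20 with Usp2 and 0.19 with Dbp, against -0.41 with Nr1d2 and -0.91 with Per3. The positive pooled value with Nr1d1 rested on the 2 farthest arrays, one of them wild-type replicate 3, which had the highest wild-type value of Npas2, Per1, Nr1d1 and Tef. Of the 15 relations, 1 (Dbp with Nr1d2) passed the adjusted threshold, by Spearman's rho only. The permutations ran over all arrays regardless of genotype and batch, so a shift shared by a genotype or batch enters these p-values. No p-value was calculated for the r values after removing genotype and batch means.

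**Figure D4:**
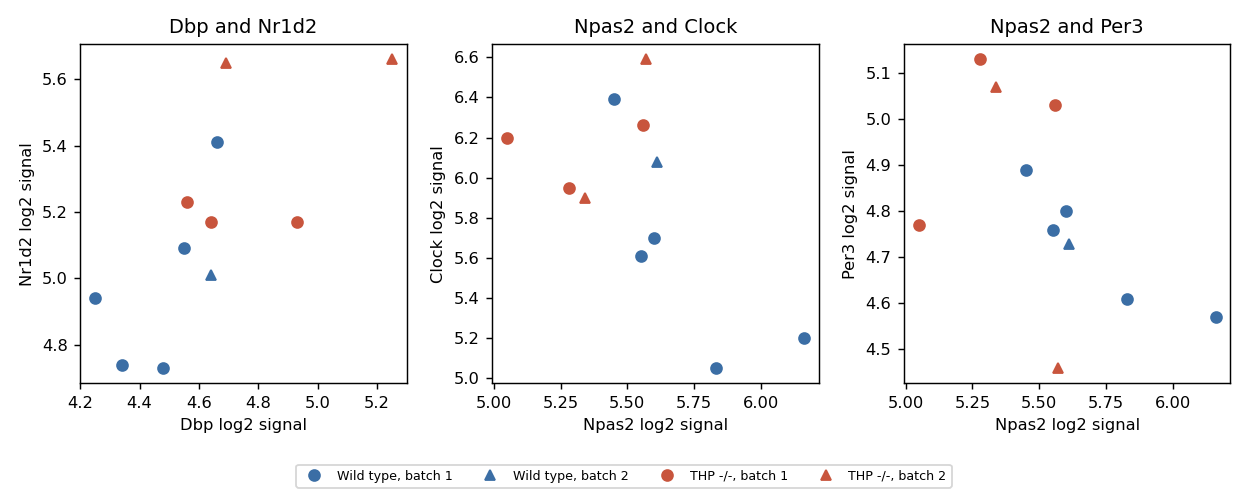
Scatter plots of log2 signal per array for Dbp with Nr1d2, Npas2 with Clock and Npas2 with Per3 (blue wild type, red THP -/-, circles batch 1, triangles batch 2, n = 11 arrays). The first pair slopes upward (r = 0.72) and the other pairs slope downward over all arrays (r = -0.62 and -0.56) and among the 6 wild-type arrays (-0.77 and -0.91). The 5 THP -/- arrays are too few for a correlation of their own.

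Among 11696 other annotated genes above the median probe set, likeness to a member was ranked by Pearson's r over the 11 arrays, as a description. The genes most like Dbp were Hpf1 (r = 0.90), Tmem135 (0.89), Reck (0.88), Taf9b (0.88) and Tedc2 (0.86). Nr1d2 ranked 96 on that list, Tef 739, Usp2 1071, Nr1d1 3029, Per3 3789, Per1 3832, Clock 5462 and Npas2 10947. The genes most like Npas2 were Erbb2 (0.92), Plxna4 (0.91), Card10 (0.90), Mdc1 (0.90) and Adamts6 (0.87), none of which is in the clock lists. These are the extremes of many genes over few arrays and carry no test.

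None of the other genes of the loop that were measured passed the test. Of the 17 other clock genes listed, 14 had a probe set of their own, of which 10 were higher and 4 lower, with a median log2 change of 0.08 and 0 past the test. At an unadjusted p under 0.05 by limma there was 1 of the 14, against 5.64% of all genes. It was Fbxw11, which encodes a ubiquitin ligase subunit that marks PER proteins for decay. Fbxw11 read 5.97, 5.67, 6.65, 6.6 and 6.23 in THP -/- arrays against 4.45 to 5.97 in wild type (median 5.58). Its log2 change was 0.72 ± 0.30 (SE; limma adjusted p = 0.781; exact permutation p = 0.0774). Its close relative Btrc, with the same role, was at -0.20 ± 0.23 (SE; limma adjusted p = 0.906).

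Arntl, the partner of CLOCK and NPAS2, was at 0.12 ± 0.16 (SE), from 5.57 to 5.95 in wild type and from 5.63 to 6.48 in THP -/-, where THP -/- replicate 4 stood highest. The cryptochrome repressors were at 0.27 ± 0.15 for Cry1 and 0.11 ± 0.18 for Cry2, and the BMAL1 inhibitor Ciart was at 0.18 ± 0.12. The RORE-binding activator Rora was at 0.11 and the D-box repressor Nfil3, which is highest in the phase opposite to Dbp, at -0.04 ± 0.16. Hlf, the third D-box activator beside Dbp and Tef, was at 0.02 ± 0.14. The remaining genes of this list, Bhlhe40, Bhlhe41, Csnk1e, Fbxl21 and Timeless, lay between -0.08 (Timeless) and 0.09 (Csnk1e). The limma adjusted p of Arntl, Cry1, Cry2, Ciart, Rora, Nfil3 and Hlf lay between 0.826 and 0.991. Among genes of night and dawn phase, Arntl and Clock thus had positive changes and Npas2 and Nfil3 negative ones, and none passed the test.

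Lists of genes that follow the clock, stress hormones, handling or temperature were read in the same fit, and 0 of their members passed over all probe sets by limma. At an unadjusted p under 0.05 by limma there was 1 of 13 clock output and broadly cycling genes and 0 of 11 glucocorticoid targets. There were 0 of 12 immediate early genes and 4 of 7 temperature-responsive genes, against 5.64% of all genes. Of 13 measured clock output and broadly cycling genes, 8 were higher and 5 lower (median 0.01). Those with the smallest p were the sodium channel subunit Scnn1a (0.61 ± 0.22, SE), the coenzyme Q factor Coq10b (0.35 ± 0.24), the cell cycle kinase Wee1 (0.15 ± 0.11) and the mitochondrial translocator Tspo (0.43 ± 0.32). Scnn1a is expressed chiefly in the distal nephron, whose distal convoluted tubule and collecting duct markers are given above, and their part in its value was not tested. Tsc22d3 and Tspan4, which with Dbp, Usp2 and the Per and Nr1d genes cycle in most mouse organs, were at -0.09 ± 0.09 and 0.01 ± 0.13.

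Of 11 glucocorticoid targets 2 were higher and 9 lower (median -0.09), including Zbtb16 (-0.44 ± 0.20, SE; -0.68 within batch 1 and 0.23 within batch 2), Ddit4 (0.55 ± 0.47), Cdkn1a (-0.13 ± 0.12) and Klf9 (-0.25 ± 0.26). Of 12 immediate early genes, which respond within minutes to handling and injury, 4 were higher and 8 lower (median -0.05), with Jun at 0.24 ± 0.15 and Egr3 at -0.27 ± 0.19. Per1, which glucocorticoids and such stimuli also raise, was at 0.18 beside them. Of 7 measured temperature-responsive genes, 6 were higher and 1 lower (median 0.36). The cold-induced RNA-binding protein gene Cirbp, whose message follows the daily fall in body temperature, was the lower one at -0.29 ± 0.12 (SE; limma adjusted p = 0.782). The heat-induced chaperone genes Hspa1a (0.75 ± 0.23), Hsp90aa1 (0.43 ± 0.15) and the constitutive Hspa8 (0.36 ± 0.11) were higher, with limma adjusted p between 0.692 and 0.761. Hspa1a was dim, above its own array's median in 3 of 11 arrays.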

How the data were processed

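The deposited table holds log2 signals of 41345 probe sets on 11 arrays, and the submitters' processing notes name Partek 6.6 and RMA, which corrects background, equalises array distributions and can shrink a shift common to most genes. A filter, a batch correction and the genome build are not given in the sources used here. Having 6 and 5 arrays limits the precision.

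Probe sets were named from the platform annotation: 23521 carry 1 symbol, 1814 several (not named) and 16010 none. Each probe set was fitted with limma 3.58.1 in R 4.3.3 (genotype and batch as fixed terms, lmFit and eBayes, 8 residual degrees of freedom, prior 2.90, two-sided). P-values were adjusted by Benjamini-Hochberg over all probe sets. The fit was also run on simulated data with added changes larger than that of any member, which says nothing of changes of the members' size. Single genes were also tested by exact permutation of genotype within batches. Folds are 2 to the power of the log2 change. The members and lists were chosen with earlier results of these data known. All measured members were named, any of the other clock genes could be, and so could up to 4 genes of smallest p per further list, and the 5 genes most like Dbp and Npas2. Tsc22d3 and Tspan4 were named outside that rule, after their values were seen. Alternatives were the batch, filter, scaling, weighting, prior, covariate and probe set choices, and each array left out. Plots used matplotlib 3.10.9 in Python 3.11.15.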

Additional observations from a re-analysis of the deposited data

Results flagged for a closer look

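Of 48 groups of arrays examined (the 9 measured members, 14 other clock genes and the opposite-phase difference, in each genotype), 2 held an array far from the rest, where chance gives about 1 in 20. Rora read 5.16 in wild-type replicate 4, and from 5.39 to 5.45 in the other wild-type arrays. Csnk1e, a kinase that marks PER proteins, read 3.66 in THP -/- replicate 5, and from 4.04 to 4.19 in the other THP -/- arrays. No member was among them.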

How the results depend on the processing

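The count of members past the threshold was 0 under each of the 12 other settings that refit the model and without each of the 11 arrays. Of 208 member changes under these settings, 6 changed sign and 0 passed the threshold: Clock, Dbp, Nr1d2, Per3 and Usp2 stayed positive and Npas2 negative in all of them. Not all of these are separate checks of sign. Leaving out dim probe sets, changing the prior or keeping only probe sets with 1 symbol cannot alter a change, only its test. Leaving out wild-type replicate 6 gave the same changes as batch 1 alone. The replicate numbers are shared by both genotypes, but deviations of same-numbered arrays correlated from -0.13 to 0.096 and 0 of 5 wild-type arrays lay closest to their own number, so the numbers were not taken as pairs. With the replicate block beside batch, Nr1d1 was at -0.16, Per1 at -0.027, Tef at -0.043, Usp2 at 0.12 and Nr1d2 at 0.16, and the opposite-phase difference was 0.088. With both Tef probe sets averaged Tef was at -0.0098. Leaving out single arrays, Nr1d1 ran from -0.035 (without wild-type replicate 5) to 0.19 and was at -0.0027 without THP -/- replicate 1, and the opposite-phase difference ran from 0.09 to 0.22. With Npas2 left out that difference was -0.23. The count of probe sets past the threshold was 3 in batch 1 alone, 1 among probe sets with 1 symbol, and ran from 0 to 11 over single arrays left out (11 without THP -/- replicate 5, 3 without wild-type replicate 6, 2 without THP -/- replicate 3, 1 without wild-type replicate 1), with no member among them. The causes were not tested.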

Other observations

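Bhlhe40, an E-box repressor of the loop, had nearly the same mean in both genotypes but a different spread. It ran from 5.29 to 6.27 in the 6 wild-type arrays (5.80 ± 0.40, SD) and from 5.76 to 5.85 in the 5 THP -/- arrays (5.79 ± 0.03, SD). The difference in spread was not tested, and it was singled out after the values were seen.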
